A study of Mus musculus with 2 samples.

Results

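The antigen-presentation genes of the major histocompatibility complex (MHC) were followed through the stromal cells of the mouse submandibular gland, 14 days after the gland's duct had been clipped or sham-operated. The genes were every row whose name starts with H2-, the prefix of the mouse MHC, together with B2m, Cd74, Tap1, Tap2, Tapbp, Ciita and Nlrc5. This gave 31 of 20140 rows: 24 by prefix and 7 by name. They were taken as 19 genes of the class I side, 11 of the class II side and H2-Ke6, a hydroxysteroid dehydrogenase gene that carries the prefix only for its position. Both libraries came from female C57BL6/J mice aged 14 weeks, with 2 submandibular and sublingual glands per library. In the ligated group a metal clip closed the main ducts for 14 days, and in the mock group the ducts were exposed without being clipped and the mouse healed for 14 days. In both, EpCAM-bearing epithelial cells and Ter119-bearing red cells were depleted on magnetic beads, dead cells were removed, and the remaining cells were run on the 10X Genomics platform. Each condition was 1 library, so no difference below has a replicate check and none was tested.

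Class I molecules pair a heavy chain with beta-2 microglobulin and carry peptides from inside the cell, loaded in the endoplasmic reticulum, to the surface of nearly every nucleated cell, where CD8 T cells and natural killer cells read them. Class II molecules pair an alpha with a beta chain, travel with the invariant chain to endosomes and show peptides from engulfed material to CD4 T cells. They belong chiefly to macrophages, dendritic cells and B cells, and interferon gamma can bring them out on endothelial, fibroblast and epithelial cells. Nlrc5 and Ciita are the coactivators that drive the promoters of the respective classes.

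Values are mean UMIs (counted RNA molecules) per 10000 UMIs of a cell, averaged by the authors over the cells of a cluster. The tables held 12 clusters of all cells and 5 clusters of a subset the authors named for Pdgfr and Gli1, with both libraries together and split by condition. Cell numbers recovered from the weights between split and joint values came to 11406 ligated and 4199 mock cells. The 9 clusters of all cells and 3 of the subset with at least 50 cells in each library were compared. By their markers, cluster 0 was endothelial-like, 1 natural killer-like, 2 T cell-like, 3 fibroblast-like, 4 a second endothelial-like cluster, 5 macrophage-like, 6 mural-like, 7 ductal-like, 9 Schwann-like and 10 led by erythroid genes. Cluster 8, led by acinar secretory genes, and cluster 11, led by cycling and neutrophil genes, were left unnamed. Cluster 10 also held 11 of 14 macrophage markers at 0.5 or more. In the subset, cluster 0 was fibroblast-like, 2 mural-like and 3 endothelial-like. Cluster 3 of the subset also held all 6 fibroblast markers at 0.5 or more. The ductal-like cells were shallow, with a recovered median of 1037 UMIs per cell, and the other compared clusters of all cells had medians of 5384 to 14099. Differences are log2((ligated + 0.1)/(mock + 0.1)), and a gene is said to have risen or fallen where the higher of its values was at least 0.5 and the difference at least 1 in size.

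In the GENCODE annotation of GRCm38, 27 of the 31 genes lay on chromosome 17, from Tapbp (chr17:33915899-33929292) and H2-K1 (chr17:33996017-34000347) to H2-M2 (chr17:37480851-37483552). B2m lay at chr2:122147686-122153083, Ciita at chr16:10480059-10528418 and Nlrc5 at chr8:94434356-94527272, and Cd74 on another chromosome. Because many of these genes are near-copies, the last 500 bases of each gene's longest protein-coding transcript, where 3' reads fall, were compared with all other genes in words of 90 bases. No word was shared for 24 of them, H2-K1, H2-D1, H2-Q7, H2-Aa, H2-Ab1, H2-Eb1, Cd74 and B2m included. Over 10% was shared for 5: H2-Ke6 with Gm20427 (37.2%), H2-T22 with H2-T10 (26.5%), H2-T23 with a pseudogene and others (13.4%), H2-DMb1 with H2-DMb2 (12.7%) and H2-Q6 with H2-Q4 and others (10.9%). H2-Q4 lay just under that limit (9.49%). In shorter words of 50 bases H2-D1 shared 9.53% and H2-Q7 6.21%. The values of genes with shared words are uncertain by an amount not measured here, since reads may be split between copies or dropped.

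Promoters of both classes were searched for a few fixed short words. RefSeq windows (GRCm38.p6) of the 250 bases before the start were matched by symbol for 25 of the 31 genes and searched on both strands. Some class I promoters held a kappaB-like or an interferon-type element, printed in capitals below, and some class I and class II promoters share the inverted CCAAT letters of the Y box, CTGATTGG, which reads CCAATCAG on the other strand. H2-K1 is shown from chr17:34000414-34000472 on the minus strand, with GGGATTCCC and TTTCACTTC in capitals. H2-Q7 is shown from chr17:35439008-35439154 on the plus strand, with the same pair and CCAATCAG in capitals, and B2m from chr2:122147533-122147571 on the plus strand, with its GAAANTGAA match in capitals. The CCAATCAG of H2-Q7 faces the other way from the CTGATTGG of H2-Aa and H2-Eb1, and whether it works as a Y box was not tested. H2-Aa, chr17:34287852-34287919 on the minus strand, and H2-Eb1, chr17:34305761-34305827 on the plus strand, are shown for the class II pattern, GCAAC of the X box followed by CTGATTGG.
H2-K1: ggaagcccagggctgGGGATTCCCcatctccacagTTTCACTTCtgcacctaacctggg
H2-Q7: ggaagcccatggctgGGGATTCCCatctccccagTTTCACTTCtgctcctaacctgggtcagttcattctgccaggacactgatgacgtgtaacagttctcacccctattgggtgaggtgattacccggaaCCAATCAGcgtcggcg
B2m: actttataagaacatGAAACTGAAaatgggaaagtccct
H2-Aa: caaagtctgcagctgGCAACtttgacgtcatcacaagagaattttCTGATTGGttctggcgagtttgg
H2-Eb1: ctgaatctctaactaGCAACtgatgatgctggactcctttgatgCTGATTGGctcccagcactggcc
GGGATTCCC stood in 0.301% of 32851 windows and in 4 members, H2-K1, H2-D1, H2-Q6 and H2-Q7. TTTCACTTC stood in 0.402% of windows and in 7 members, all of them class I heavy chains: H2-K1, H2-D1, H2-Q4, H2-Q6, H2-Q7, H2-Q10 and H2-M3. GAAANTGAA stood in 1.75% of windows and in 2 members, B2m and H2-T22. CTGATTGG stood in 3.83% of windows and in 10 members of both classes. GCAAC followed by CTGATTGG after 15 to 30 letters stood in 0.0670% of windows and in 4 members, H2-Oa, H2-Aa, H2-Eb1 and H2-Eb2, all of class II. It was not found in the windows of the class II genes H2-DMa, H2-DMb1, H2-DMb2 and H2-Ob, and H2-Ab1, Cd74 and Ciita had no window. These matches describe the letters only.

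Of the 31 genes, 24 reached 0.5 in some cluster of some library: 14 of the class I side, 9 of the class II side and H2-Ke6. The other 7, H2-Q2, H2-Q10, H2-T24, H2-M2, H2-M5, H2-Oa and H2-Eb2, stayed at 0.357 or lower. H2-M2 was listed at 0 in the whole mock library and reached 0.144 in the ligated macrophage-like cluster, where a difference in how the libraries were annotated cannot be told apart from one in the cells.

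**Figure D1:**
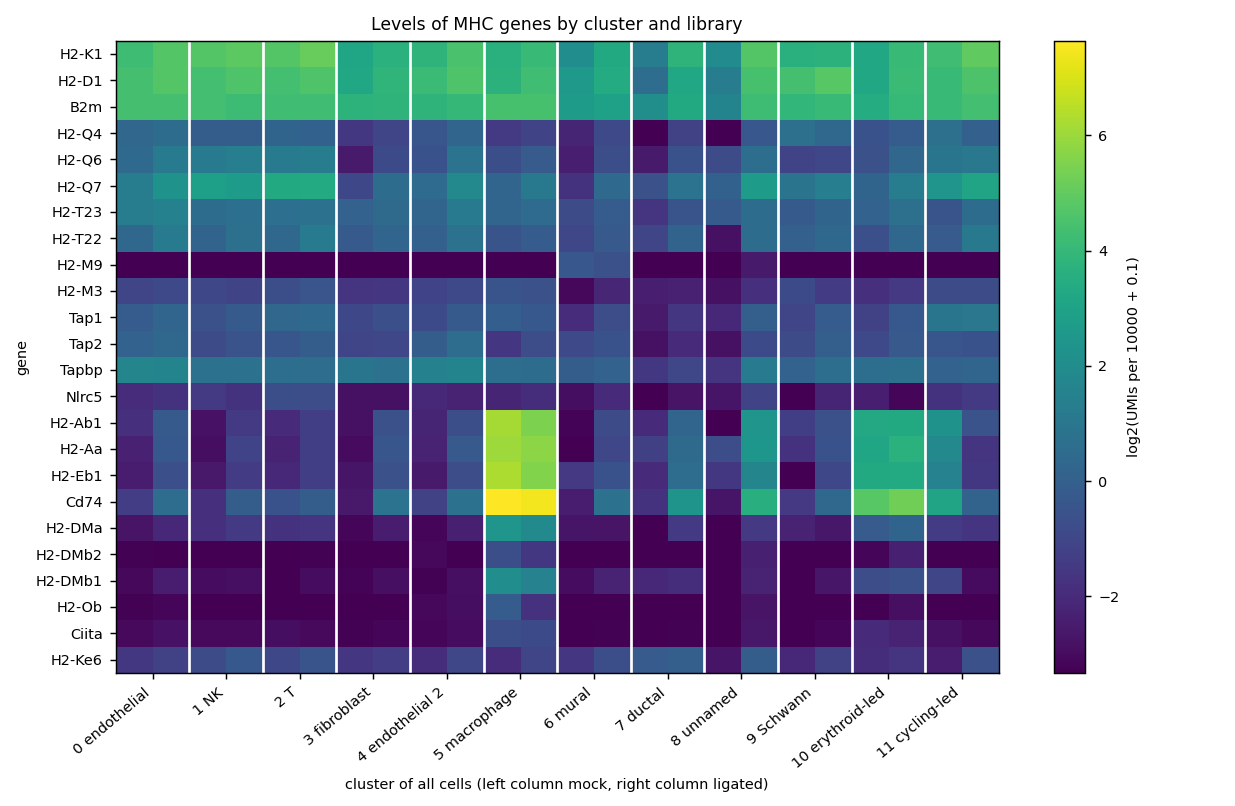
Level of the 24 genes that reached 0.5 in the 12 clusters of all cells, as log2(UMIs per 10000 + 0.1), with mock in the left and ligated in the right column of each cluster (colours are to be compared along a row, not between genes). Cd74 runs from 0.0560 in the mock cells of unnamed cluster 8 to 199.7 in the mock macrophage-like cells, while B2m stays between 2.97 and 21.9.

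Class I was present in every cluster and highest in lymphocytes. With both libraries together, the summed level of the 14 class I heavy-chain genes was 75.8 in the T cell-like, 66.1 in the natural killer-like and 58.7 in the endothelial-like cluster. It was 41.0 in the macrophage-like, 30.4 in the fibroblast-like, 21.4 in the mural-like and 18.2 in the ductal-like cluster. The macrophage-like cluster thus did not stand at the top of class I, and mural-like and ductal-like cells stood at the bottom of these clusters. H2-K1, a classical heavy chain, ran from 33.2 in T cell-like to 8.25 in mural-like cells, a 4.02-fold range. H2-D1, the other classical heavy chain, ran from 27.3 in the Schwann-like to 5.91 in the ductal-like cluster. B2m, the shared light chain, had a 3.03-fold range, from 21.8 in macrophage-like to 7.22 in mural-like cells.

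The balance of the classical chains differed by cell type. H2-K1 stood above H2-D1 in the T cell-like cluster, by a ratio of 1.38 after ligation and 1.27 after mock surgery, and in the natural killer-like cluster, by 1.21 and 1.29. This was not particular to lymphocytes: the ductal-like cluster had the highest ratio of the compared clusters, 1.53 ligated and 1.71 mock. Unnamed clusters 8 (1.20 and 1.60) and 11 (1.30 and 1.16), with few mock cells, were also above 1. In the Schwann-like cluster the ratio was 0.482 ligated and 0.580 mock, although the mock value rests on 17 cells. The order was therefore the same in both libraries for these clusters. The ratios compare UMI counts of 2 genes that are not corrected for length, so only their change from cluster to cluster is to be read.

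Ligation went with more class I heavy chain in each of the 9 compared clusters, by amounts that were small in natural killer-like and T cell-like cells. The summed level was 67.3 ligated against 60.1 mock in natural killer-like cells (difference 0.16), 77.2 against 63.6 in T cell-like cells (0.28) and 42.3 against 29.9 in macrophage-like cells (0.50). In vessels it was 66.9 against 48.6 in endothelial-like cluster 0 (0.46) and 58.1 against 36.8 in endothelial-like cluster 4 (0.66). Fibroblast-like cells had 32.0 against 20.7 (0.63), and mural-like cells had 24.9 against 12.1, a 2.06-fold difference (1.04). Ductal-like cells had 27.6 against 5.21, 5.29-fold (2.38). The cluster led by erythroid genes had 42.3 against 22.8 (0.88), but there the median of all rows was itself 0.56. Only the mural-like and ductal-like sums passed the size rule, and the mural-like one lay at its edge.

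H2-K1 was higher in the ligated library in 9 of 9 clusters. Its values were 26.4 ligated and 18.7 mock in endothelial-like cluster 0, 12.9 and 8.82 in fibroblast-like, 17 and 12.3 in macrophage-like, 9.88 and 4.01 in mural-like and 14.1 and 2.40 in ductal-like cells. It rose past the size rule in the mural-like (1.28) and ductal-like (2.50) clusters. H2-D1 was also higher in 9 of 9, with 14.2 against 9.16 in fibroblast-like and 10.5 against 5.98 in mural-like cells, and rose in the ductal-like cluster alone, 9.16 against 1.40 (2.62). B2m did not move with its heavy chains. It was 21.3 ligated and 21.0 mock in endothelial-like cluster 0, 13.8 and 13.6 in fibroblast-like, 21.8 and 21.9 in macrophage-like and 18.0 and 20.4 in natural killer-like cells, and its differences in clusters 0 to 5 lay between -0.18 and 0.17. The ratio of H2-K1 to B2m accordingly went from 0.892 mock to 1.24 ligated in endothelial-like cluster 0, from 0.651 to 0.933 in fibroblast-like, from 0.560 to 0.778 in macrophage-like and from 0.632 to 1.31 in mural-like cells. In the ductal-like cluster B2m rose as well, 9.96 against 4.13 (1.25).

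**Figure D2:**
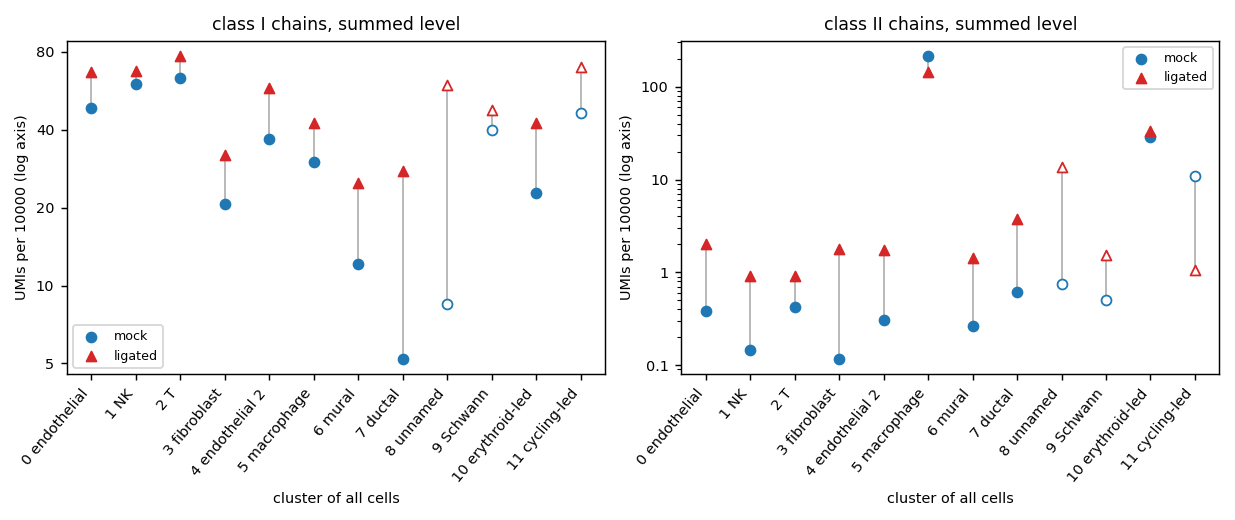
Summed level of the class I heavy chains (left) and the class II chains (right) in each cluster of all cells, in UMIs per 10000 on a log axis, with circles for the mock and triangles for the ligated library and open symbols for clusters under 50 cells in a library. Ligated class I values lie above mock in all 9 compared clusters, and class II values do so in 8 of the 9, the macrophage-like cluster 5 having 145 ligated and 215 mock.

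The class Ib genes encode less variable class I chains, several of which present to natural killer or other specialised receptors. H2-Q7, which encodes Qa-2, was highest in T cell-like cells (10.3 ligated, 9.93 mock), followed by unnamed cluster 11 (8.39 and 5.10) and natural killer-like cells (6.60 and 7.30). Its differences in T cell-like and natural killer-like cells were 0.06 and -0.14. It was lower and rose in 3 clusters of stromal kinds: 1.36 against 0.426 in fibroblast-like (1.47), 3.51 against 1.31 in endothelial-like cluster 4 (1.36) and 1.26 against 0.204 in mural-like cells (2.16). It also rose in the ductal-like cluster, 1.69 against 0.558 (1.45), and in the cluster led by erythroid genes, 2.41 against 1.06 (1.12), where the median of all rows was 0.56. In endothelial-like cluster 0 it was 4.90 against 2.43, a difference of 0.98, just short of the rule. In the values as listed, the gap between lymphocytes and these 6 clusters was thus narrower in the ligated library for this gene. The same held for macrophage-like cells, at 2.07 against 1.09 (0.86). With the mean profile of the whole library subtracted, the H2-Q7 difference was 1.22 in endothelial-like cluster 4 and 1.17 in fibroblast-like cells. It was then 0.90 in endothelial-like cluster 0, 0.57 in ductal-like cells, 0.56 in cluster 10 and -0.03 in macrophage-like cells. In mural-like cells it was 0.77, from 0.0700 ligated and 0 mock.

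H2-Q6, an adjacent Qa-2 gene whose 3' end partly matches other copies, rose in endothelial-like cluster 4 (1.70 against 0.578, 1.41), mural-like (0.512 against 0.0868, 1.71) and ductal-like cells (0.584 against 0.0731, 1.98). H2-T23, which encodes Qa-1, the ligand of the natural killer receptor pair NKG2A and CD94, was highest in endothelial-like cluster 0, at 2.69 ligated and 2.38 mock. It rose in ductal-like cells alone (0.613 against 0.221, 1.15), though its difference was above 0 in 9 of 9 clusters. H2-T22, a ligand of some gamma delta T cell receptors, was likewise higher in 9 of 9, with 2.20 against 1.19 in endothelial-like cluster 0 (0.84), and rose in ductal-like cells, 1.02 against 0.389 (1.20). H2-Q4 stayed within -0.13 and 0.63 in the 5 clusters where it reached 0.5. H2-M3, which presents formylated peptides, was highest in T cell-like cells (0.652 ligated, 0.516 mock) with a difference of 0.29.

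H2-M9 stood apart in where it was found. It was at 0.559 ligated and 0.682 mock in mural-like cells of all cells, and at 0.648 and 0.817 in the mural-like cluster of the subset. In the other 11 clusters of all cells it was at 0.00175 or lower apart from 0.0720 in the ligated cells of unnamed cluster 8, and it was listed at 0 in 8 of these clusters of the ligated and 10 of the mock library. It shared no word of 90 bases with another gene in its last 500 bases. Its difference in mural-like cells was -0.25, against the rise of H2-K1, H2-Q6 and H2-Q7 in the same cluster.

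The peptide supply moved little. Tap1, a subunit of the peptide transporter, was higher in 7 of 8 clusters where it reached 0.5, between -0.26 in macrophage-like and 1.20 in mural-like cells, where it rose from 0.163 to 0.505. Tap2, the other subunit, was higher in 7 of 7 clusters by 0.28 to 0.86, and did not pass the rule in any. Tapbp (tapasin), which holds the empty class I molecule at the transporter, stayed between -0.12 and 0.23 in 8 clusters, with 2.95 ligated and 3.12 mock in endothelial-like cluster 0. Nlrc5 reached 0.5 in T cell-like cells alone, at 0.504 ligated and 0.530 mock.

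Class II was concentrated in the macrophage-like cluster. Cd74, on chromosome 18, encodes the invariant chain that fills the groove of new class II molecules. With both libraries together, Cd74 was 176 there, 32.3 in the cluster led by erythroid genes and 0.738 in natural killer-like cells, the lowest. The chain genes followed the same order at the top: H2-Ab1 was 46.7, H2-Aa 54.7 and H2-Eb1 50.3 in cluster 5, and 9.82, 10.6 and 10.2 in cluster 10. Of all Cd74 in a library, 86.2% of the ligated and 80.9% of the mock total lay in cluster 5. Of the peptide editors, H2-DMa was 3.89 and H2-DMb1 2.89 in cluster 5, and H2-Ob, part of the H2-O inhibitor of H2-DM, 0.259. Ciita was at 0.456. Class II genes were themselves among the 10 leading genes of this cluster, so their height there describes the cluster and is no independent result.

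Macrophages were not the only possible source in cluster 5. It was highest for 13 of 14 macrophage markers, with summed levels of 482 ligated and 397 mock. It was also highest for 6 of 7 B cell markers, summed at 7.04 ligated and 11.1 mock, and for 6 of 8 dendritic cell markers, summed at 2.06 and 2.71. The B cell antigen receptor gene Cd79a was 0.703 ligated and 1.47 mock, and Igkc 2.27 and 5.23, while Ighm, the heavy chain of immunoglobulin M, was 3.26 and 2.88. Jchain (0 and 0.0583) was near 0.

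In cluster 5 class II was lower after ligation, in contrast to class I. The summed level of the class II chains was 145 ligated and 215 mock, a difference of -0.57. Each of the 9 class II genes that reached 0.5 there had a difference below 0: Cd74 174 against 199.7 (-0.20), H2-Aa 53.5 against 66.1 (-0.31), H2-Ab1 44.0 against 71.1 (-0.69) and H2-Eb1 47.2 against 77.7 (-0.72). H2-DMa was 3.74 against 5.23 (-0.47), H2-DMb1 2.77 against 4.03 (-0.53), H2-DMb2 0.247 against 0.512 (-0.82) and Ciita 0.449 against 0.518 (-0.17). H2-Ob fell past the size rule, from 0.823 to 0.195 (-1.65), and was the only member to do so in any compared cluster, where 4.34% of all rows in that cluster were lower past the rule. No member was higher past the rule there, against 4.15% of rows. The mock cluster holds 77 cells and the ligated one 680. The B cell and dendritic marker sums named above also were lower in the ligated library, though not every marker was. Cd209a was 0.0993 ligated and 0.357 mock, Itgax 1.18 in both and Zbtb46 0.0730 and 0.0598. Their part in the lower class II level was not tested.

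Seen over whole libraries the direction was the opposite. The mean of the class II chains over all cells was 10.5 ligated and 4.90 mock, 2.14-fold. Cluster 5 made up 5.96% of ligated and 1.83% of mock cells. With the ligated cluster values weighted by the mock cell mix, the class II mean was 5.15, or 1.05-fold the mock value. Cd74 was 12 ligated and 4.53 mock, and 5.49 at the mock mix (0.27). H2-Ab1 went from a difference of 0.93 to -0.01, H2-Aa from 1.31 to 0.31 and H2-Eb1 from 0.91 to -0.11. The class I sum, by contrast, was 1.34-fold higher over all cells and 1.37-fold at the mock mix. The reweighting changes the shares of all 12 clusters at once, so the part of cluster 5 alone was not tested.

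Outside cluster 5 the class II values were low and higher in the ligated library. The summed level was 2.02 ligated and 0.379 mock in endothelial-like cluster 0 (2.15), 1.76 and 0.305 in endothelial-like cluster 4 (2.20), 1.79 and 0.117 in fibroblast-like (3.12) and 1.44 and 0.262 in mural-like cells (2.08). It was 0.904 and 0.145 in natural killer-like (2.03), 0.924 and 0.423 in T cell-like (0.97) and 3.80 and 0.618 in ductal-like cells (2.44). In the cluster led by erythroid genes it was 33.3 and 28.7 (0.21). Apart from that last cluster, all of these lay far under the 145 of ligated cluster 5.

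Cd74 rose in 6 of the 9 clusters. Its values were 1.43 ligated and 0.300 mock in endothelial-like cluster 0, 0.852 and 0.180 in natural killer-like, 1.70 and 0.0691 in fibroblast-like, 1.61 and 0.333 in endothelial-like cluster 4, 1.60 and 0.0819 in mural-like and 4.97 and 0.201 in ductal-like cells. H2-Aa, H2-Ab1 and H2-Eb1 rose together in 4 clusters, the 2 endothelial-like, the fibroblast-like and the ductal-like. In endothelial-like cluster 0 H2-Aa was 0.716 against 0.102 (2.01), H2-Ab1 0.762 against 0.191 (1.57) and H2-Eb1 0.542 against 0.0856 (1.79). In fibroblast-like cells they were 0.663 against 0.0231 (2.63), 0.560 against 0.0406 (2.23) and 0.567 against 0.0533 (2.12).

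Over the 9 clusters, 133 gene and cluster pairs reached 0.5, of which 33 were higher and 1 lower past the rule. Endothelial-like cluster 0 had 4 of 15 members higher, beside 3.92% of all rows, and all 4 were class II genes. Natural killer-like cells had 1 of 13 (3.0% of rows) and T cell-like cells 0 of 15 (3.08%). Fibroblast-like cells had 5 of 12 (4.47%), endothelial-like cluster 4 had 6 of 15 (3.29%) and mural-like cells 5 of 14 (4.92%). Ductal-like cells had 11 of 12 (14.8%), and the cluster led by erythroid genes 1 of 17 (23.0%). Clusters 2 and 10 were thus under the share of all rows, and cluster 1 had a single gene, Cd74. The class I side gave 15 of 94 pairs, 7 of them in ductal-like cells, and the class II side 18 higher and 1 lower of 35. All 18 of these class II pairs reached 0.5 in the ligated library only, with mock values of 0.333 or lower. The minimum thus let them in through the library where they were high, and their count is no independent support for a rise. The same held for some class I pairs, with mock values of 0.426 or lower. They were H2-Q7 in fibroblast-like, H2-Q6, H2-Q7 and Tap1 in mural-like, and H2-Q6, H2-T23 and H2-T22 in ductal-like cells. Clusters share their library and any free RNA in it, so they are not replicates of one another.

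**Figure D3:**
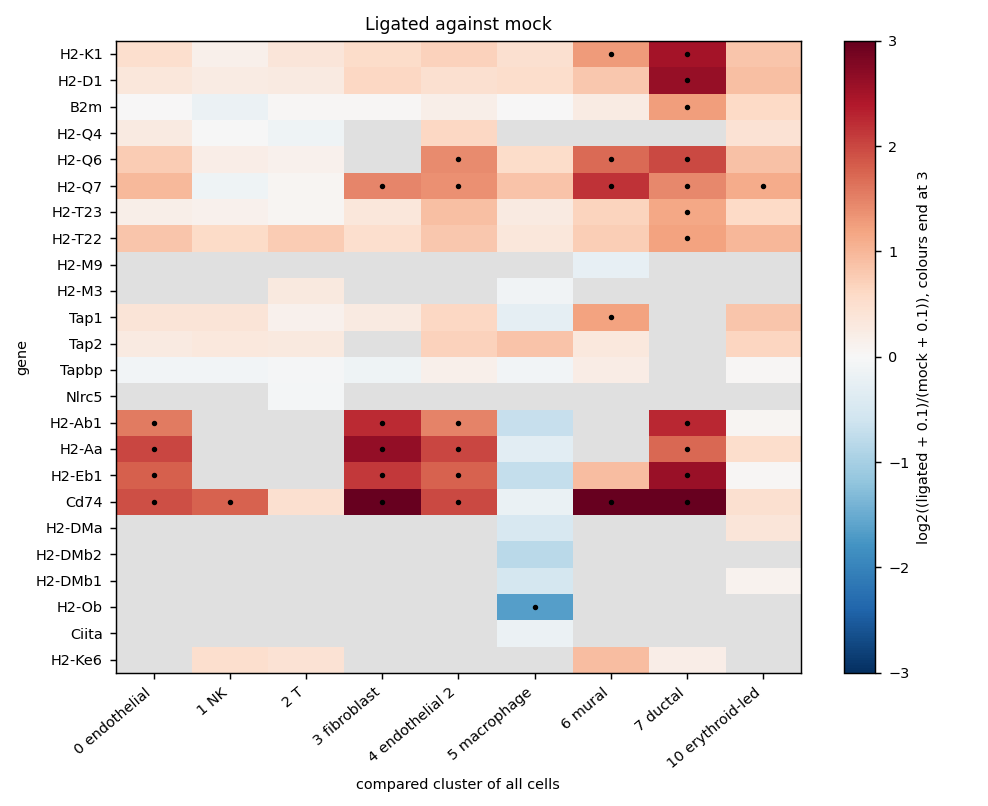
Difference log2((ligated + 0.1)/(mock + 0.1)) of the 24 genes in the 9 compared clusters of all cells, with dots where the size rule was passed, grey where neither value reached 0.5, and colours ending at 3. H2-Aa, H2-Ab1, H2-Eb1 and Cd74 are red and dotted in clusters 0, 3, 4 and 7 and blue in cluster 5, and B2m and Tapbp are pale in most clusters.

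In droplet data free RNA from broken cells enters every droplet, and 1 source keeps its genes in 1 ratio wherever it lands. Each class II gene was therefore set, as a share of its level in cluster 5 of the same library, beside the same share of 10 macrophage markers (C1qa, C1qb, C1qc, Csf1r, Lyz2, Adgre1, Ms4a7, Pf4, Mrc1 and Cd68). In the ligated library Cd74 stood at 0.821% of its cluster 5 level in endothelial-like cluster 0, where the median marker stood at 0.806%. The pairs were 0.977% and 1.16% in fibroblast-like, 0.921% and 0.888% in mural-like, 0.927% and 0.820% in endothelial-like cluster 4, 0.490% and 0.547% in natural killer-like and 0.488% and 0.679% in T cell-like cells. They were 2.86% and 2.23% in ductal-like cells and 22.2% and 24.6% in the cluster led by erythroid genes. Ligated Cd74 thus lay close to the level of the macrophage markers in each compared cluster.

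The summed level of the 10 markers was higher in the ligated library in the compared clusters outside cluster 5, but Pf4 was lower in it in clusters 0, 2, 3, 4, 6, 7 and 10, and Mrc1 in cluster 10. The sum was 1.67 ligated and 0.298 mock in endothelial-like cluster 0, 2.40 and 0.246 in fibroblast-like, 1.61 and 0.189 in endothelial-like cluster 4 and 5.85 and 0.385 in ductal-like cells. None of the 10 was at 0 in ligated clusters 0, 2, 3, 4 and 10, while 3 of 10 were at 0 in the mock natural killer-like, T cell-like, fibroblast-like and second endothelial-like clusters, 5 in the mock ductal-like and 7 in the mock mural-like cluster. In mock cells Cd74 was 0.150% beside a median marker of 0.0532% in endothelial-like cluster 0, 0.0346% beside 0.108% in fibroblast-like and 14.0% beside 14.6% in cluster 10. In mural-like cells the sum was 1.98 ligated and 1.90 mock, with Pf4, also made by platelets, at 225% of its cluster 5 level in the mock cells.

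**Figure D4:**
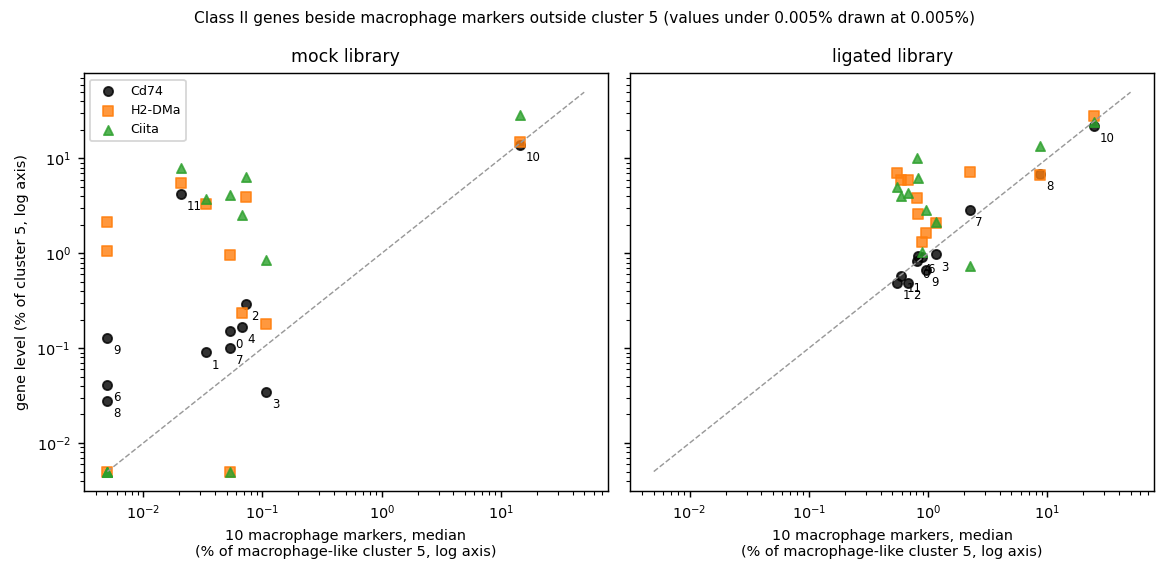
Level of Cd74, H2-DMa and Ciita outside cluster 5, as a percentage of the cluster 5 level of the same library, against the median percentage of 10 macrophage markers, for the mock (left) and ligated (right) libraries on log axes, with cluster numbers beside the Cd74 points, a dashed line of equality and values under 0.005% drawn at 0.005%. Ligated Cd74 lies along the line, from 0.488% in cluster 2 to 22.2% in cluster 10. Ligated H2-DMa lies above it in every compared cluster drawn, at 7.06% in cluster 1, 5.99% in cluster 2 and 7.13% in cluster 7.

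Some class II genes stood off that ratio. In ligated endothelial-like cluster 0 the chain genes were at 1.34% (H2-Aa), 1.73% (H2-Ab1) and 1.15% (H2-Eb1) of cluster 5, above Cd74 at 0.821%. H2-DMa, a chain of the peptide editor, was at 7.06% in ligated natural killer-like cells, where the median marker was at 0.547%, and at 3.34% in mock ones, where it was at 0.0339%. In T cell-like cells H2-DMa was at 5.99% ligated and 3.90% mock. Ciita was at 10.1% ligated and 4.17% mock in endothelial-like cluster 0, and at 18.9% and 16.4% in the endothelial-like cluster of the subset, yet its levels there were 0.0848 and 0.0849. These 2 genes were at a higher share than Cd74 in lymphocytes, endothelial-like and fibroblast-like cells of both libraries. The levels of Ciita there stayed far under 0.5. In ligated fibroblast-like cells H2-DMa was at 2.08% and Ciita at 2.12%, beside Cd74 at 0.977%. In mock ones they were at 0.182% and 0.847%, beside 0.0346%, from about 2.52 and 1.16 UMIs.

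Taking the macrophage-like profile, scaled by the median marker, out of each cluster left class I nearly where it was: the class I sum then differed by 0.45 in endothelial-like cluster 0, 0.61 in fibroblast-like, 1.01 in mural-like and 2.34 in ductal-like cells. With the mean profile of the whole library subtracted instead, the class I sum differed by 0.37 in mural-like cells, 0.12 in macrophage-like cells and 0.55 in cluster 10. With the macrophage-like profile subtracted, Cd74 in endothelial-like cluster 0 was 0.0271 ligated and 0.194 mock, and in fibroblast-like cells 0 in both. With the library mean profile it was 0.305 and 0.139 in cluster 0 (0.76) and 0.542 and 0 in fibroblast-like cells, so its value there depends on which profile is taken out. With the macrophage-like profile subtracted, the class II chain sum still differed by 1.39 in endothelial-like cluster 0, 1.37 in endothelial-like cluster 4 and 1.08 in fibroblast-like cells, with H2-Aa at 0.285 ligated and 0.0668 mock in cluster 0 and at 0.0425 and 0 in fibroblast-like cells. Its difference was under 1 in natural killer-like (0.30) and ductal-like cells (0.17) and turned in T cell-like (-1.70) and mural-like cells (-0.13). In mock mural-like cells the median marker share was 0, so only the ligated values were lowered there. The turn in mural-like cells follows from that 1-sided step and cannot be read as a result. In T cell-like cells, with values below 0 set to 0, ligated H2-Aa and H2-Eb1 were left at 0 and H2-Ab1 at 0.0125. The mock values were 0.0604, 0.0817 and 0.0995, so that turn rests on values at or near the floor and is not read as a fall. After the macrophage-like subtraction 15 pairs of the 8 clusters outside cluster 5 were higher past the rule, against 33 without it, and none lower. The difference of the class II sum thus stayed above 1 in clusters 0, 3 and 4, but H2-Aa, H2-Ab1, H2-Eb1 and Cd74 were each under 0.5 there after the subtraction, so none of them passed the rule. In fibroblast-like cluster 3 H2-Aa, H2-Ab1 and H2-Eb1 were then 0.0425, 0.0498 and 0.0191 ligated and 0 mock. The difference of 1.08 there hangs on the pseudocount of 0.1.

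The ductal-like cluster needs its own reading. Its 278 ligated and 201 mock cells carried ductal markers although EpCAM-bearing cells had been depleted, and a single UMI in a cell of the median depth adds 0.0347 to a ligated and 0.0480 to a mock mean. Here 26.5% of all rows passed the rule in either direction. All 12 members that reached 0.5 had a difference above 0, with a median of 1.86 beside -0.09 over all rows. H2-K1 and H2-D1, at 14.1 and 9.16 ligated against 2.40 and 1.40 mock, stood out from the shift of B2m, 9.96 against 4.13. The summed level of 6 ductal markers, among them the kallikrein gene Klk1 and keratins, was 935 ligated and 363 mock, so the cells of this cluster differed between libraries in their own marker genes too.

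The subset comes from the same libraries and is no replicate. In its fibroblast-like cluster the class I sum was 30.4 ligated and 20.4 mock (0.57) and the class II sum 1.29 and 0.123 (2.64). H2-Q7 (1.14 against 0.327, 1.54), Cd74 (1.18 against 0.0740, 2.87) and H2-Aa (0.508 against 0.0260, 2.27) rose there, 3 of 10 members beside 4.75% of rows. In the mural-like cluster the class I sum was 15.8 and 9.65 (0.71, against 1.04 in all cells), H2-K1 was 5.48 and 2.90 (0.90) and H2-Q7 0.406 and 0.0802. The class I rises of mural-like cells were thus not past the rule in the subset. Cd74 alone rose there (1.08 against 0.0967, 2.59), 1 of 9 beside 4.26%. In the endothelial-like cluster the class I sum was 53.8 and 40.7 (0.40), and Cd74 (0.874 against 0.0465, 2.73) and H2-Aa (0.501 against 0.0658, 1.86) rose, 2 of 13 beside 6.29%. This cluster was mixed: its endothelial markers summed to 86.8 ligated and 140.4 mock, and its fibroblast markers to 65.5 and 19.3. The part of this mix in its differences was not tested. In these 3 clusters every member that rose reached 0.5 in the ligated library only. Their counts are thus no independent support for a rise. B2m was 13.4 and 13.5, 5.33 and 4.80, and 18.2 and 18.1 in the 3 clusters.

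Genes that work with the members were read from lists of their own. Of 13 class I pathway genes (the immunoproteasome, its activator, the loading chaperones and interferon-responsive factors), 9 of 103 gene and cluster pairs rose, 8 of them in ductal-like cells and 1, Psme1, in cluster 10, and none fell. Of all rows, 14.8% in ductal-like cells and 23.0% in cluster 10 were higher past the rule. Psmb8, an immunoproteasome subunit, was 5.15 ligated and 4.78 mock in endothelial-like cluster 0 and 2.43 and 0.946 in ductal-like cells (1.27). Pdia3, a chaperone of the loading complex, was 2.38 and 0.654 in ductal-like cells (1.72). Outside the ductal-like cluster these pathway genes were thus mostly within the rule. The class I members past it there were H2-Q7, H2-Q6 in endothelial-like cluster 4 and mural-like cells, and H2-K1 and Tap1 in mural-like cells. With the library mean profile subtracted, H2-K1 differed by 0.65 in mural-like cells.

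Of 12 class II pathway genes, 10 of 34 pairs rose, but 5 of these were Ifi30, a thiol reductase of the endosome. The other 5 were Ctss, Ctsl and Ctsb in ductal-like cells and Lgmn and Cd86 in cluster 10, the clusters with the high shares of rows just given. Ifi30 was at 3.98 in ligated macrophage-like cells and listed at 0 in every cluster of the mock library, so no fold is given and a difference in how the libraries were annotated cannot be told apart from a difference in the cells. Ctss, the protease that trims the invariant chain, was 42.8 ligated and 36.6 mock in macrophage-like cells (0.23), where class II was lower, and rose in ductal-like cells (1.20 against 0.155, 2.35). Cd86, a costimulatory ligand, was 1.59 and 1.10 in macrophage-like cells (0.49). Of 4 class I-like genes outside the prefix, Fcgrt, the neonatal Fc receptor that also pairs with B2m, rose in endothelial-like cluster 0 (2.54 against 1.04, 1.21), in the endothelial-like cluster of the subset (2.57 against 1.06, 1.21) and in cluster 10, but was 3.79 and 3.54 in fibroblast-like cells.

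Across the 12 clusters of both libraries together, the genes whose profile was most like the class I sum, among 6756 rows, were Ifi47 (Pearson r 0.944), an interferon-inducible GTPase, Psmb10 (0.921), an immunoproteasome subunit, Arhgef1 (0.919), Saraf (0.894) and Phf14 (0.893). Most like the class II sum were the macrophage genes Aif1 (0.990), Wfdc17 (0.984), Lyz2 (0.983), C1qc (0.980) and Ly86 (0.978). The 12 points share their libraries and differ in depth, and the class II values rest on clusters 5 and 10.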

How the data were processed

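The deposited tables hold, per the file headers and the values, mean UMIs per 10000 per cell for each cluster, made by the authors: every column sums to 10000, so the values are linear and hold neither counts nor spread. The submitters' processing notes name Cell Ranger 6.0.1, Seurat and mm10, with no roles; cell filters, doublet handling and clustering settings are not given in the sources used here, and no doublets were called here. The 4 tables cover all cells and a subset, each joint and split by condition. Where the tables are split, 21 gene names had been turned into dates and were restored by row order, none of them a member.

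Cell numbers were recovered as the whole-number weights that turn the split values into the joint ones, with a largest residual of 9.2e-08. From them came library means and the 50-cell minimum per library. Steps were run in Python 3.11.15 with numpy 2.4.6, pandas 2.3.3 and matplotlib 3.10.9, and the recovery and the size rule were tested on simulated data. With 1 library a condition no test was made: differences used a pseudocount of 0.1, and the size rule (higher value at least 0.5, difference at least 1) was read against the share of all rows past it. Members reaching 0.5 anywhere are named, the others given by count and highest value. Members, lists and rules were chosen with earlier results of these data known. Clusters were named from marker lists (macrophage, dendritic, B cell, endothelial, lymphatic, natural killer, T cell, fibroblast, mural, ductal, acinar, Schwann, erythroid, neutrophil, cycling). Alternatives were other pseudocounts, minimums and sizes, centring, list medians, leaving out rows of 1 library, subtraction of 2 free-RNA profiles and, added after seeing the data, leaving out cluster 7. The class I sum holds the 14 heavy-chain genes, the class II sum the 4 chain genes. Promoter windows were RefSeq's (GRCm38.p6) and gene positions GENCODE's (GRCm38).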

Additional observations from a re-analysis of the deposited data

Results flagged for a closer look

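In macrophage-like cluster 5 the class II sum differed by -0.57, while it differed by more than 0 in every other compared cluster of all cells; the difference between clusters was not tested. Values that passed the size rule also lie in clusters that were not compared because fewer than 50 mock cells were recovered. In unnamed cluster 8 (264 ligated and 25 mock cells) the class I sum was 59.8 ligated and 8.47 mock, a difference of 2.81, and the class II sum 13.6 and 0.755, a difference of 4.00. In the same cluster the 14 macrophage markers summed to 86.2 ligated and 6.37 mock and 6 acinar markers to 0.704 and 274. In Schwann-like cluster 9 (271 and 17 cells) the class II sum was 1.55 and 0.508, a difference of 1.44. In cluster 4 of the subset (17 and 10 cells) it was 0.548 and 0.151, a difference of 1.37. In 2 clusters the class II sum lay the other way: it was 1.07 ligated and 11 mock in unnamed cluster 11 (59 and 22 cells, a difference of -3.25) and 11.3 and 26.1 in cluster 1 of the subset (435 and 14 cells, a difference of -1.20).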

How the results depend on the processing

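No paired analysis was possible because each condition has 1 library, and no library could be left out. Of 285 values recomputed under the alternatives, 207 were labelled the same as the main value. For a sum, this meant the same side of the size rule, read from the difference alone, without the minimum of 0.5. A change of sign counted against it only where either difference was at least 1 in size. For a count, the label meant staying within a fixed fold of the main count, and not turning to or from none. Class II sums turned with the macrophage profile subtracted in cluster 2 (-1.70), cluster 6 (-0.13) and subset cluster 2 (-0.52), and with the library mean profile subtracted in cluster 2 (-1.05) and cluster 6 (-1.17). In cluster 6 and subset cluster 2 the median marker share of the mock cells was 0, so the macrophage profile lowered their ligated sums only. In cluster 2 ligated H2-Aa was 0 after either subtraction, and H2-Ab1 and H2-Eb1 were at 0.0318 or lower. Class II sums slipped under the rule in clusters 1 (0.30) and 7 (0.17) with the first and in cluster 1 (0.69) and subset cluster 2 (0.77) with the second profile, and with a pseudocount of 1 in clusters 1 (0.73) and 6 (0.95) and subset cluster 2 (0.77). With a pseudocount of 0.01 cluster 2 passed it (1.11). The class I sum of cluster 6 slipped under it with a pseudocount of 1 (0.98), as a list median (0.89) and with the library mean subtracted (0.37).

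The 34 member and cluster pairs past the rule became 8 with a pseudocount of 1, 7 with a minimum of 2, 13 with a size of 2, 15 with the macrophage profile and 10 with the library mean subtracted, and 23 without cluster 7. By cluster, in the order 0, 1, 3, 4, 5, 6, 7, 10 and subset 0, 2, 3, the main counts of 4, 1, 5, 6, 1, 5, 11, 1, 3, 1 and 2 became 0, 0, 1, 0, 0, 2, 5, 0, 1, 0 and 0 with a pseudocount of 1, and 0, 0, 0, 1, 0, 1, 4, 1, 0, 0 and 0 with a minimum of 2. A size of 2 left 1, 0, 4, 1, 0, 2, 5, 0, 2, 1 and 1. The macrophage profile left 0, 0, 1, 2, 3, 8, 1, 1, 0 and 0 (cluster 5 not run), and the library mean 0, 0, 2, 2, 1, 0, 5, 0, 2, 0 and 0. Without a minimum, clusters 1, 5 and 6 had 4, 2 and 8 and the subset clusters 6, 6 and 4. With a pseudocount of 0.01 cluster 5 had 3 and cluster 10 had 2, and centring left 0 in cluster 10. The Cd74 share was above the median marker share in 4 ligated and 6 mock clusters of 8, and above the highest marker share in 0 and 0.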
